A study of Homo sapiens with 2 samples.

Results

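NeuroD1 peaks were examined at 10 genes of the MYC and MAX network, namely MYC, MYCL, MAX, MXD1, MXD3, MXD4, MXI1, MNT, MGA and MLX, out of 20037 protein-coding genes. A peak was counted for a gene when any base of it overlapped the RefSeq gene body or lay at most 20 kb from either end, and 12 of the 6183 peaks met this rule. Peaks were present at 6 of the 10 genes, whereas 29.7% of all protein-coding genes had a peak by the same rule. None of the 12 peaks lay at MYC or MYCL. The peaks that lay directly before the start of a network gene were at MNT, MXD4, MXD1 and MLX, and the pair before MNT was enriched 23.6-fold and 23.1-fold, ranks 53 and 58 of all peaks by fold enrichment and 81 and 88 by −log10 q.

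The data came from IMR-32, a neuroblastoma cell line with amplified MYCN, labelled WT, with no treatment named in the labels. The series holds 1 library made with a NeuroD1 antibody and 1 input library of chromatin without antibody, and only the peak list of the NeuroD1 library was analysed here. The sample labels name NeuroD1 as the antibody target, whereas the supplementary ChIP methods name an H3K27Ac antibody, and the list was used as labelled. With 1 library, no test across replicates could be made, and each interval covers counting error only. Fold enrichment is the summit pileup plus 1, divided by the local background plus 1. Over all peaks its median was 6.79, its quartiles were 5.79 and 8.68, and its 95th percentile was 13.8. The total depth of the library is unknown. The reads over a summit, solved from the deposited values, had a median of 17 and a range from 8 to 272, so binding covered by fewer than 8 reads could not be seen in this list.

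NeuroD1 is a basic helix-loop-helix factor of neuronal differentiation that binds E-boxes, the motif CANNTG. The proteins of the MYC and MAX network carry a related basic helix-loop-helix domain joined to a leucine zipper. MAX is their shared partner. With MYC, N-Myc or L-Myc it binds the E-box CACGTG and recruits coactivators, and with MXD proteins or MNT it binds the same E-box and recruits SIN3 corepressors and histone deacetylases. MXI1 belongs to the MXD family. MGA, which has a T-box domain besides its helix-loop-helix, pairs with MAX in a variant Polycomb complex. MLX is a second hub, which resembles MAX and pairs with MXD1, MXD4, MNT and the glucose-responsive factors MLXIP and MLXIPL. In neuroblastoma with amplified MYCN, N-Myc is the dominant MYC protein.

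The 250 bases before the RefSeq start are shown for the genes with a peak over them, MNT, MXD4, MXD1 and MLX, and for MXD3, which had E-boxes there and no peak. They are from RefSeq of GRCh38.p14, 5′ to 3′ on the strand of the gene, with each E-box in capitals. The regions are chr17:2401061-2401310 (minus strand) for MNT, chr4:2262110-2262359 (minus strand) for MXD4, chr2:69914859-69915108 (plus strand) for MXD1, chr17:42566850-42567099 (plus strand) for MLX and chr5:177312753-177313002 (minus strand) for MXD3. The submitters' processing notes name hg38, which is the same assembly.
MNT: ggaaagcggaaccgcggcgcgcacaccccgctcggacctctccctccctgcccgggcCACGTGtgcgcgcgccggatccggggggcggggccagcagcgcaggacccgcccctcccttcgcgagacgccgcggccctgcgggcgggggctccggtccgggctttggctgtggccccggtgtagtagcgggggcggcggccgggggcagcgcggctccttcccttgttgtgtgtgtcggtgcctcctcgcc
MXD4: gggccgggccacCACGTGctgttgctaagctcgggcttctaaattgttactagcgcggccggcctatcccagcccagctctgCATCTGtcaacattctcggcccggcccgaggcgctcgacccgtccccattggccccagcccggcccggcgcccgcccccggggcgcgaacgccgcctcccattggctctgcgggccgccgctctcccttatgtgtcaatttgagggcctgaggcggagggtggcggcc
MXD1: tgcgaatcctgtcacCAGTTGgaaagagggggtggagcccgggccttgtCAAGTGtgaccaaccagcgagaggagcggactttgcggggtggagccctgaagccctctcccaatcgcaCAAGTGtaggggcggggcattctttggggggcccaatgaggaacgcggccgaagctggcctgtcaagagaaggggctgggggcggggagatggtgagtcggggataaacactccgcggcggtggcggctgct
MLX: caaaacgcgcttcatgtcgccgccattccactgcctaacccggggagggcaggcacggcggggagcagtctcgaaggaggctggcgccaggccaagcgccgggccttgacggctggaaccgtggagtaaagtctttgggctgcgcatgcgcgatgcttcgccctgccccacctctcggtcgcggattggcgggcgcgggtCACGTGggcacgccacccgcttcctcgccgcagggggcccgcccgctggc
MXD3: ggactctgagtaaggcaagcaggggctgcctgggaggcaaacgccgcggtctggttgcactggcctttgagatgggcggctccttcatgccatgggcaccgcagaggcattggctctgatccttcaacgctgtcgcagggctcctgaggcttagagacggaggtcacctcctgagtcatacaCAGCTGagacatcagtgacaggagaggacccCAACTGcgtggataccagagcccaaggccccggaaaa

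MNT, which acts as a broadly expressed repressor in pairs with MAX or MLX, had the most peaks and the highest enrichment of the network. The gene lies on chromosome 17 from 2384073 to 2401060, on the minus strand, and 4 peaks were counted for it. At least 4 peaks by this rule were found for 1.08% of protein-coding genes. The peak from 2400994 to 2401300 spanned the start of the gene, with its summit 85 bp before it, and was enriched 23.6-fold (−log10 q = 55.3). Solved from these values, 48 reads lay over the summit, with an exact 95% Poisson interval of 35.4 to 63.6, and the background there was 1.04, the lowest in the list. The peak from 2401460 to 2401860 had its summit 614 bp before the start and was enriched 23.1-fold (−log10 q = 53.7), with 47 reads (34.5 to 62.5). The called intervals were separated by 159 bp and the summits by 529 bp. These intervals of reads overlap almost entirely, so the 2 sites could not be ranked against each other.

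The other 2 MNT peaks lay inside the gene body and were weak. The peak from 2399710 to 2399897, 1292 bp after the start, was enriched 5.79-fold with 11 reads (5.49 to 19.7). Further inside, 8216 bp after the start, the peak from 2392741 to 2392957 was enriched 4.58-fold with 13 reads (6.92 to 22.2) and ranked 5734 of 6183. With the background held fixed, the counting interval of the start-site peak corresponded to 17.5-fold to 31.1-fold, above the upper ends of both gene-body peaks, 9.97-fold and 7.60-fold. Among the 2149 protein-coding genes with a peak in the 250 bases before a start, MNT ranked 32 by its highest peak. In the whole list 91 peaks were enriched at least 20-fold, and 11 protein-coding genes, MNT and its neighbour METTL16 among them, had at least 2 of these by the 20 kb rule. This limit of 20-fold was chosen after the MNT values were seen.

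**Figure D1:**
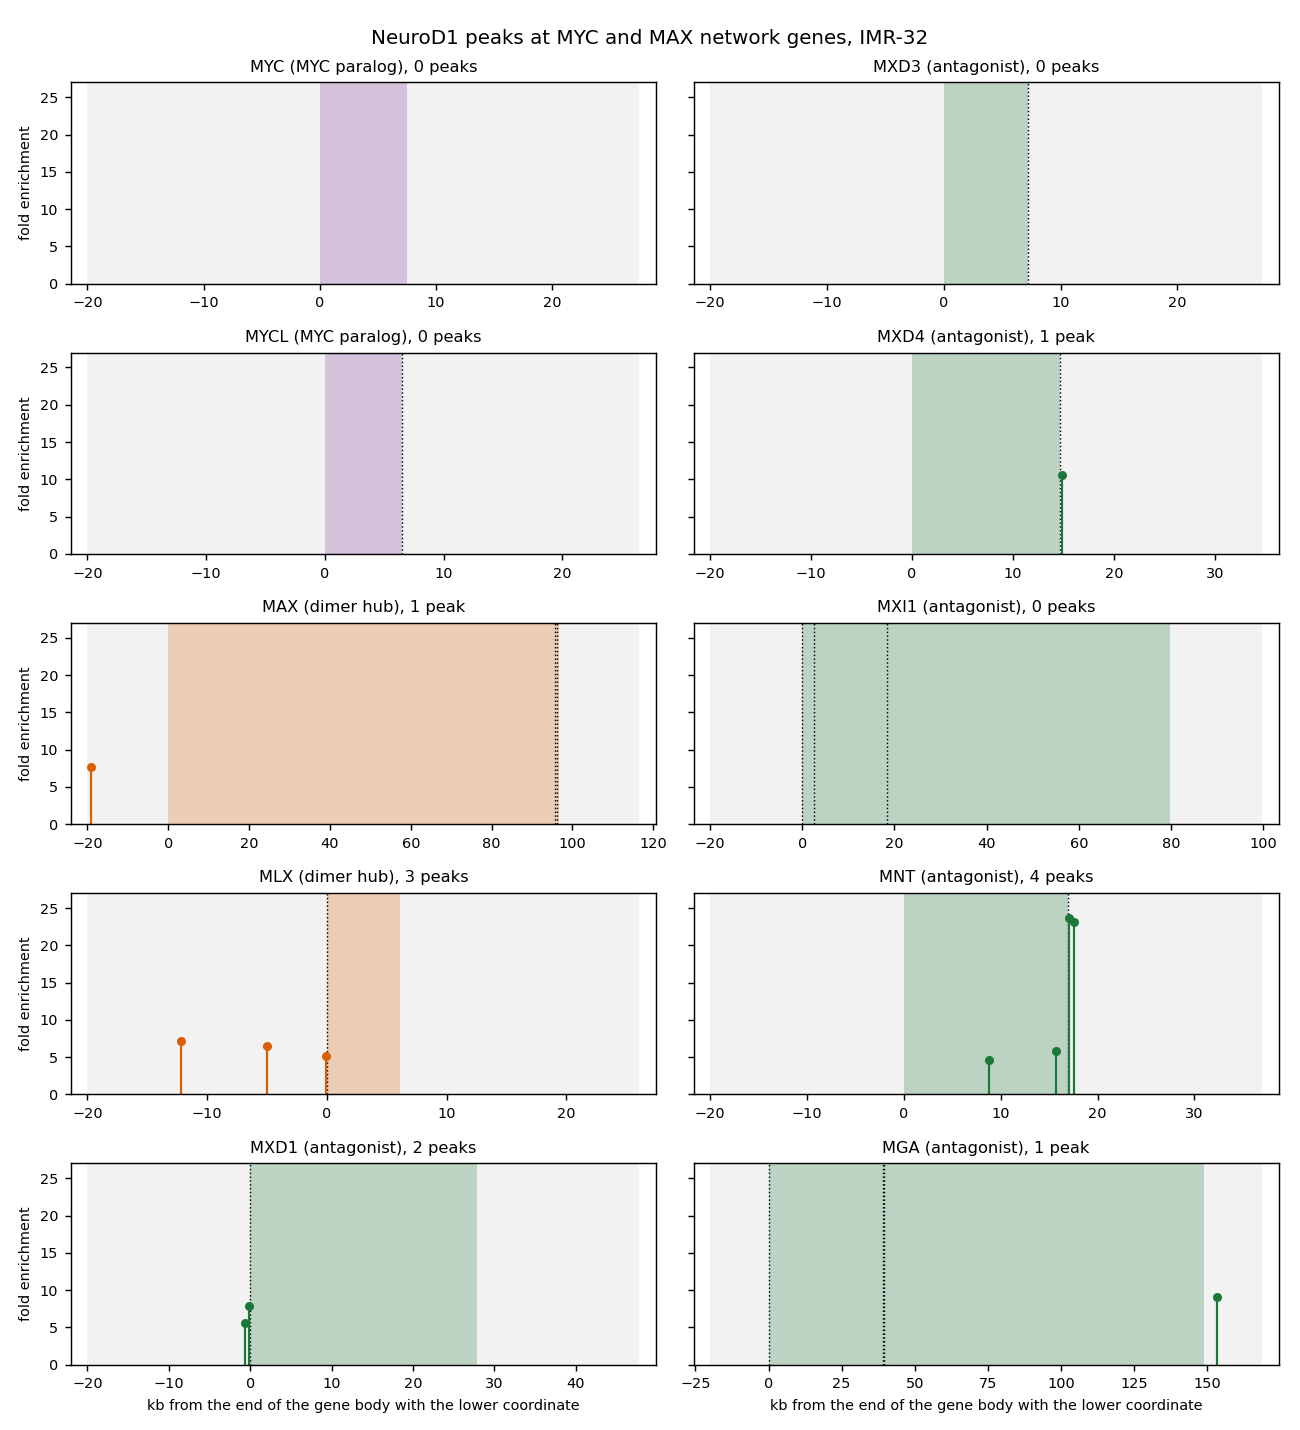
Fold enrichment of each NeuroD1 peak (vertical axis) against the position of its summit in kb from the end of the gene body with the lower coordinate, for the 10 genes. The tinted band is the gene body, grey is the 20 kb on either side, and dotted lines are RefSeq starts (none drawn for MYC). The 2 tall MNT peaks stand at 23.6 and 23.1 beside the start, all other peaks lie at or below 10.6, and MYC, MYCL, MXD3 and MXI1 have none.

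MXD4, an MXD repressor linked to cells that leave the cell cycle, had 1 peak. It lay on chromosome 4 from 2262080 to 2262399, across the start of the gene, with its summit 178 bp before it. It was enriched 10.6-fold (−log10 q = 15.4), rank 732, with 21 reads (13.0 to 32.1) over the lowest background of 1.04. The corresponding fold enrichment of 6.75 to 15.9 lay wholly below the 17.5 to 31.1 of the MNT start-site peak.

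MXD1, an MXD repressor known from differentiating cells, had 2 peaks on chromosome 2 before its start. The peak from 69914762 to 69915133, with its summit 94 bp before the start, was enriched 7.85-fold with 23 reads (14.6 to 34.5). A weaker peak from 69914385 to 69914600 had its summit 635 bp before the start and was enriched 5.65-fold with 14 reads (7.65 to 23.5). The summits lay 541 bp apart, so MXD1 resembled MNT in having a pair of peaks before its start, at a lower enrichment. Their implied backgrounds were 2.0 and 1.61, below the 95th percentile of 3.0 over all peaks.

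MLX had 3 peaks on chromosome 17, of which 1 was at its own start. That peak, from 42566875 to 42567138 with its summit 96 bp before the start, was enriched 5.14-fold (−log10 q = 4.95) with 16 reads (9.15 to 26.0) over a background of 2.25. It ranked 5404 of 6183 by fold enrichment and was the weakest of the peaks that covered a start in the network. The other 2 lay at neighbouring genes. The peak from 42561963 to 42562179 was enriched 6.47-fold with its summit 86 bp before the start of COASY, which encodes the enzyme of the last steps of coenzyme A synthesis. The peak from 42554837 to 42555032 was enriched 7.17-fold with its summit 136 bp before the start of HSD17B1-AS1, inside the body of HSD17B1, a gene of estradiol synthesis.

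Among the peaks at the own start, MNT stood above the others. By fold enrichment the order was MNT, MXD4, MXD1 and MLX, at 23.6, 10.6, 7.85 and 5.14. The counting intervals of MXD4 (6.75 to 15.9), MXD1 (5.10 to 11.6) and MLX (3.07 to 8.15) overlapped. The differences between these 3 were not tested, and overlap alone does not decide whether they exceed counting error. Of the 9 genes with a RefSeq promoter window, 4 had a peak in the 250 bases before a start, against 13.6% of protein-coding genes. All 4 summits lay between 85 and 178 bp before the start. For all 1998 peaks over the 250 bases before a protein-coding start, the median summit lay 92 bp before it (quartiles of the position -153 and -43 bp), so this placement was that of promoter peaks in general.

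MAX and MGA met the rule only through peaks at the starts of other genes. For MAX, the common partner, the peak on chromosome 14 from 64986750 to 64986963 lay 19138 bp beyond the 3′ end of the gene and was enriched 7.71-fold with 15 reads (8.40 to 24.7). Its summit was 37 bp before the start of FNTB, which encodes the beta subunit of farnesyltransferase. For MGA, the peak on chromosome 15 from 41774412 to 41774616 lay 4472 bp beyond the 3′ end and was enriched 9.05-fold with 19 reads (11.4 to 29.7). Its summit was 21 bp after the start of MAPKBP1, a gene for a MAP kinase binding protein. No peak overlapped the body of MAX, 96.6 kb long, or of MGA, 148.7 kb long, and none lay over the 2 MAX and 3 MGA promoter windows. The MAX peak was the one closest to the limit of 20 kb on its inner side. Closest on the outer side was a peak 29957 bp from MLX, on chromosome 17 from 42536942 to 42537143, enriched 7.06-fold with 23 reads.

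**Figure D2:**
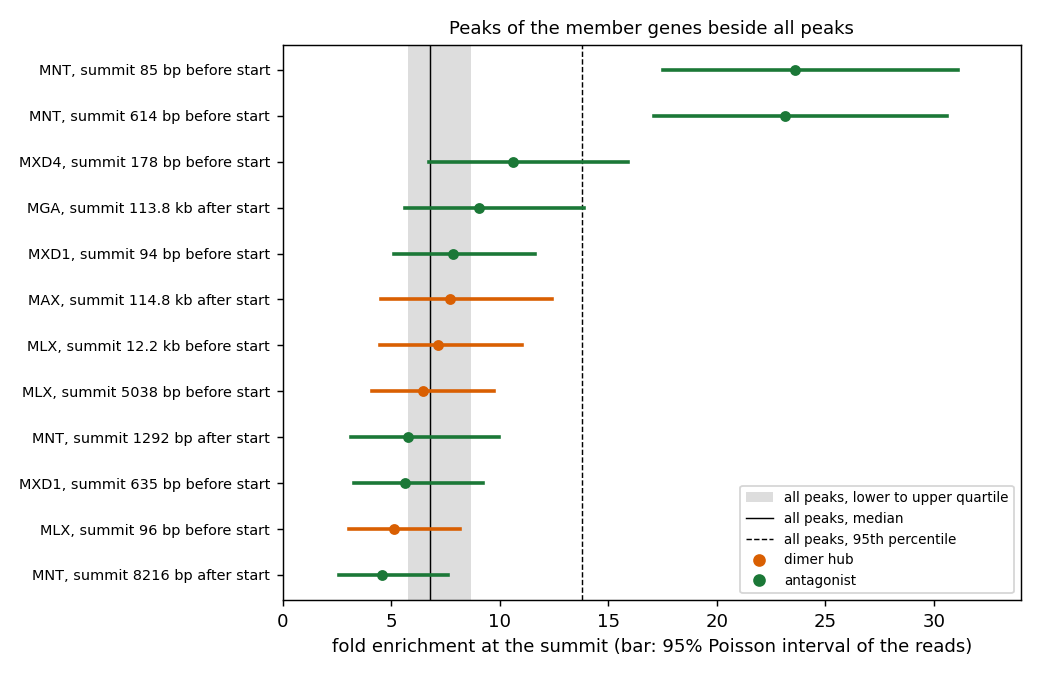
Fold enrichment at the summit of the 12 peaks (points) with the range that the 95% Poisson interval of the reads corresponds to at a fixed background (bars), labelled by the distance of the summit from the nearest start of the member gene. Grey marks the quartiles of all peaks (5.79 to 8.68), the solid line their median (6.79) and the dashed line their 95th percentile (13.8). Only the 2 MNT peaks before the start have bars wholly to the right of the dashed line.

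MYC and MYCL had no peak. MYC, the paralog used by most proliferating tissues, lies on chromosome 8 from 127735434 to 127742951, and the nearest peak was 201.7 kb away, from 127944631 to 127944916, with a 6.21-fold enrichment and 18 reads. MYCL, first known from small cell lung cancer, lies on chromosome 1 from 39895428 to 39901917. Its nearest peak, 53.0 kb away beside the lipid transporter gene MFSD2A, was enriched 5.31-fold with 10 reads. MYCN, the paralog that is amplified in these cells, had 4 peaks by the same rule and a peak in the 250 bases before its own start. The highest of the 4 was enriched 5.51-fold with 255 reads over a background of 44.5. The 4 MYCN backgrounds ran from 36.9 to 49.0, far above the 1.04 to 2.34 of the 12 network peaks, and the part of this background in the MYCN peaks was not tested.

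MXD3 and MXI1 had no peak either. MXD3, an MXD repressor associated with S phase, lies on chromosome 5 from 177305499 to 177312752, and its nearest peak was 60.6 kb away, inside NSD1, a histone H3 lysine methyltransferase gene, at 5.79-fold and 11 reads. MXI1 lies on chromosome 10 from 110207605 to 110287365, with 3 RefSeq promoter windows, and was 280.1 kb from its nearest peak, which lay in the cohesin gene SMC3 and was enriched 5.93-fold with 12 reads. Both nearest peaks were below the median of all peaks.

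By role, 0 of 2 MYC paralogs (MYC and MYCL), 2 of 2 dimer hubs (MAX and MLX) and 4 of 6 antagonists (MXD1, MXD4, MNT and MGA) had a peak, with 0, 4 and 8 peaks. The paralog MYCN, which is outside the 10 genes and not in these counts, had 4 peaks by the same rule and a peak before its own start. At the own start, the counts were 0 of 2, 1 of 2 and 3 of 6, with MYC, which has no promoter window here, counted among those without. Over all protein-coding genes, the share with a peak by this rule rose with gene length. It was 25.7% for bodies under 20 kb, 30.9% from 20 to 100 kb and 37.7% for 100 kb or more. In the network, bodies under 20 kb belonged to MLX, MXD4 and MNT, which had a peak by the rule, and to MYC (7.5 kb), MYCL (6.5 kb) and MXD3 (7.3 kb), which had none. Of the longer genes, MXD1, MAX and MGA had a peak by the rule and MXI1 (79.8 kb) had none. With groups of 2, 2 and 6 genes from 1 library, these counts are a description, and no difference between roles was tested.

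The peaks of the network were mostly promoter peaks. Of the 12, 8 overlapped the 250 bases before the start of some RefSeq gene, against 34.6% of all peaks. In 4 of these 8 the start belonged to a network gene, and in the other 4 to a neighbour (FNTB, MAPKBP1, COASY and HSD17B1-AS1). The 12 peaks were chosen for lying in or near a gene, whereas the 34.6% was taken over all peaks at any distance from genes. The shares are therefore not like for like, and the share among peaks near any protein-coding gene was not computed. The median fold enrichment of the 12 was 7.44, and 7 were above the median of all peaks. At 5 of the 12 summits the implied background was at the lowest value of the list.

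E-boxes were then located in the 14 promoter windows of the 9 genes, 5 of which are printed above. MXD4 was the only gene of the 9 with a NeuroD-type E-box (CAGATG or its complement CATCTG), which began 168 bases before the start with its centre 12 bp from the summit. This type was found in 10.2% of the 22199 protein-coding promoter windows, in 7.16% of those with a peak and in 10.6% of those without. These shares cover promoter windows only, and peaks outside promoter windows were not searched. The paper reports that a HOMER search of its binding sites found NeuroD1-specific motifs significantly enriched. MNT, with the highest peak, had a single E-box, a CACGTG that began 193 bases before the start with its centre 105 bp from the summit, and no CANNTG within 100 bp of that summit. The CACGTG that the MYC and MAX network itself binds was also present at MXD4, 238 bases before the start, and at MLX, 50 bases before the start. It was thus found at 3 of the 4 genes with a peak and at none of the other 5 genes with a window, whereas 7.37% of all windows, 9.28% of those with a peak and 7.14% of those without held it. These are counts over 9 genes with no test. Since CANNTG reads the same on both strands, 1 search covers both.

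MXD1 had 3 E-boxes of other types, and the CAAGTG that began 132 bases before the start had its centre 35 bp from the summit. MXD3 had a CAGCTG that began 68 bases before the start, a type found in 13.7% of all windows, in 14.2% of those with a peak and in 13.6% of those without, and no peak was called there. MYCL, MXI1 and MGA each had 1 E-box of another type, and the 2 MAX windows had none. Over all windows, some E-box was present in 49.2% of those with a peak and in 59.2% of those without. The windows with a peak also had a higher GC content, with a median of 68% against 61.2%, and the part of GC content in these shares was not tested. Among the network windows with a peak the GC content was 78% at MNT, 71.2% at MLX, 70.4% at MXD4 and 64.4% at MXD1.

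**Figure D3:**
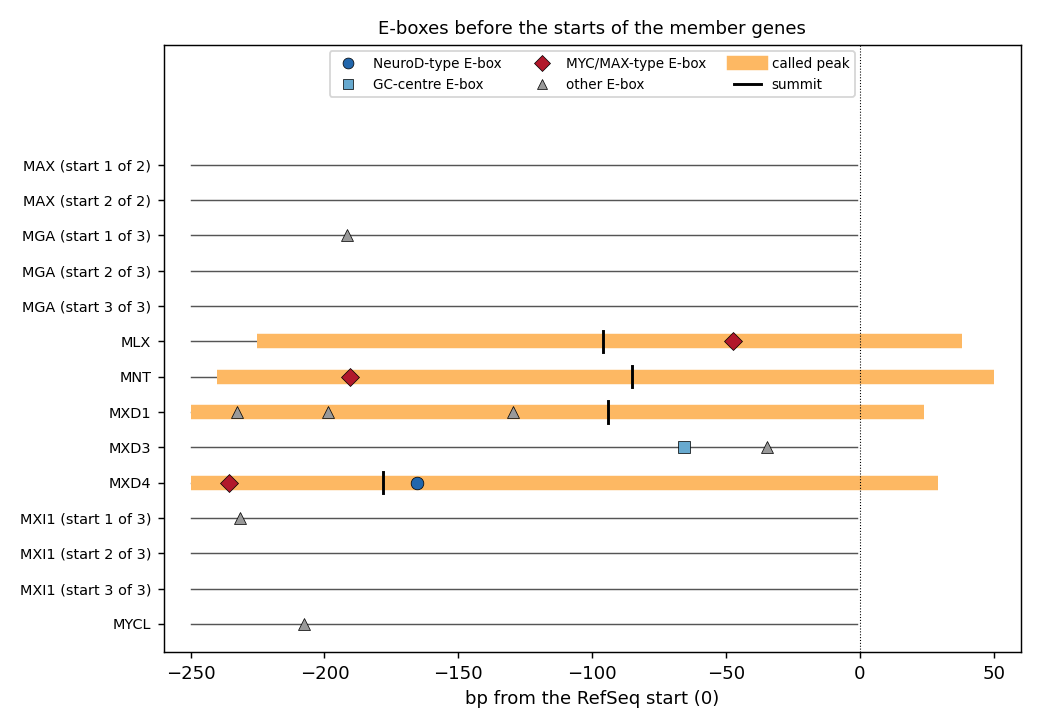
E-boxes (markers) in the 250 bases before the RefSeq starts of 9 genes, in bp from the start, with the called peak in orange, drawn up to 50 bp after the start, and the summit as a black bar. The MYC/MAX-type diamond (CACGTG) is seen at MLX, MNT and MXD4, the NeuroD-type circle only at MXD4, 12 bp from its summit, and no marker lies near the MNT summit. Starts of 1 gene are numbered in order of coordinate.

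Where the sequence around a summit lay wholly in a promoter window, it was searched directly. Within 100 bp of the summit this was possible for 5 of the 12 network peaks and 1104 of all 6183, and 3 of the 5 and 43.6% of the 1104 held an E-box. Within 50 bp it was possible for 7 and 1638 peaks, of which 2 (MXD1 and MXD4) and 27.1% held one. A NeuroD-type E-box was within 50 bp at 1 of these 7, the MXD4 peak, and at 4.33% of the 1638. Within 100 bp it was found at 0 of 5 network peaks against 6.7% of all peaks searched, and over the whole interval at 0 of 3 against 7.74%. The MXD4 peak was not among those 5 or 3, since its sequence reached beyond the promoter window.

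The wider network was then examined through 32 genes, which encode the remaining paralog and MLX partners, the SIN3 and HDAC corepressors, MYC coactivators, regulators of MYC activity or stability, and partners of MGA. Of these, 16 had a peak by the 20 kb rule, against 29.7% of protein-coding genes, and 9 had one in the 250 bases before their own start, against 13.6%. The 13.6% covers the 15843 protein-coding genes with a promoter window. The 9 is out of all 32 genes, where a gene that lacks a window was counted as without a peak there. The list was written with earlier results of these data known, so these counts are a description and were not tested. The highest peak was at E2F6, a repressive E2F in the same Polycomb complex as MGA, on chromosome 2 from 11466006 to 11466446. It was enriched 37.2-fold, rank 15, with 88 reads (70.6 to 108) and a summit 94 bp before the start. SIN3A, the scaffold through which MXD proteins and MNT repress, had 5 peaks, and the highest was enriched 17.8-fold with 45 reads (32.8 to 60.2). The peak counted for MLXIPL, enriched 14.9-fold, lay 19777 bp from that gene and 31 bp after the start of VPS37D. MYCBP2, a large ubiquitin ligase named for binding MYC, had a 14.4-fold peak with its summit 132 bp before the start. WDR5, a MYC cofactor of histone methyltransferases, had a 12-fold peak, and its summit lay 21 bp after the start of the divergent transcript WDR5-DT.

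Among the groups, 6 of 9 coactivator genes had a peak (TRRAP, EP400, RUVBL1, RUVBL2, ACTL6A and WDR5). In 4 of them a peak lay over a promoter window of the gene, and a gene without such a window could not be counted. The TRRAP peak lay 10815 bp outside that gene, and the nearest start with a promoter window was that of TMEM130. The ACTL6A peak overlapped the gene body. The nearest start with a promoter window, that of LOC124909462, was 13960 bp away. Distances to starts without a promoter window were not measured, so this peak could lie at a start of ACTL6A itself. Of the corepressor genes, 2 of 5 had one (SIN3A and HDAC2), whereas SIN3B, HDAC1 and NCOR1 had none. Of the genes for regulators of MYC, 2 of 8 had one (SKP2 and MYCBP2), and FBXW7 and AURKA had none. The 2 of 5 and the 2 of 8 are near the 29.7% of all protein-coding genes. Of the MGA partners, 3 of 7 had one (E2F6, L3MBTL2 and CBX3), and the L3MBTL2 peak lay at the start of EP300-AS1. MLXIP had 2 peaks, neither over a promoter window of that gene, and the higher lay 14410 bp outside the gene. The MNT peak of 23.6-fold lay between those of E2F6 and SIN3A, and the counting interval of its reads (35.4 to 63.6) overlapped that of SIN3A and not that of E2F6.

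**Figure D4:**
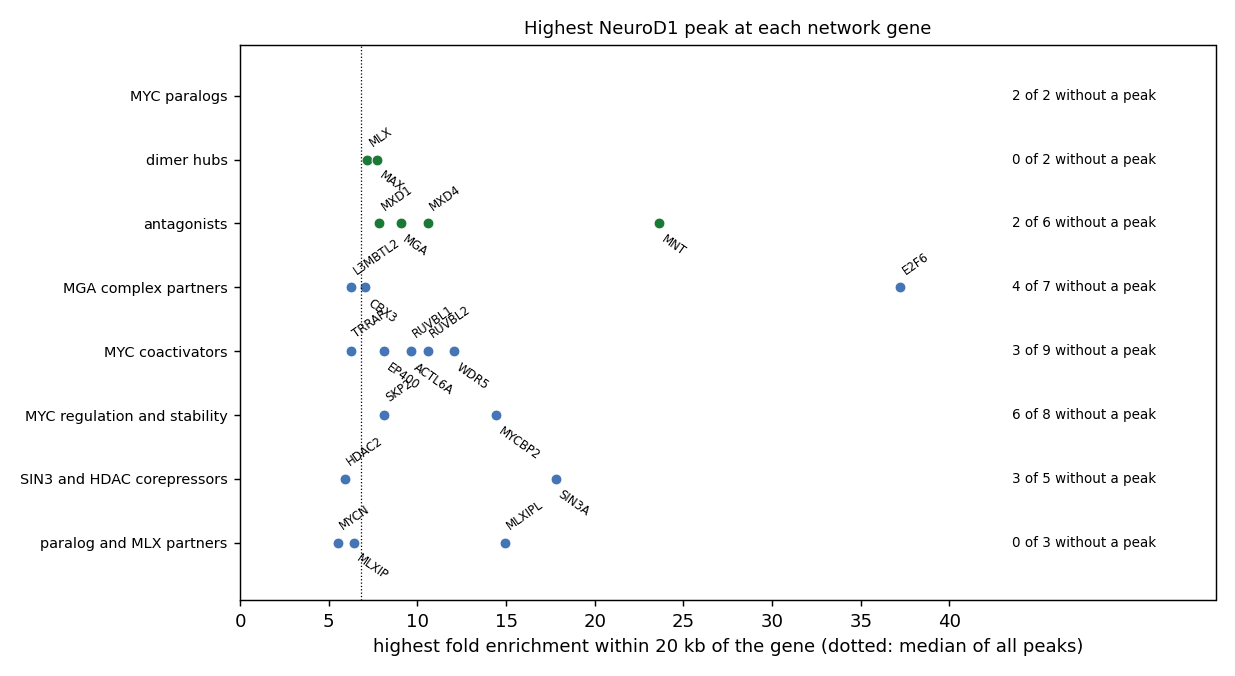
Highest fold enrichment of a peak within 20 kb of each of the 10 genes (green) and of 32 further network genes (blue), by group, with the number of genes without a peak at the right. The dotted line is the median of all peaks, 6.79. E2F6 at 37.2, MNT at 23.6 and SIN3A at 17.8 lie farthest to the right, and the MYC paralogs row is empty because neither MYC nor MYCL had a peak. MYCN, which had peaks, is drawn in the row of the paralog and MLX partners.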

How the data were processed

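The peak list of 1 NeuroD1 ChIP-seq library of IMR-32 was analysed. The authors called peaks with MACS, named macs3 in the peak names and MACS2 2.2.7 beside BWA 0.7.17 and hg38 in the submitters' processing notes. Control and q threshold are not given in the sources used here. The deposited fold enrichment is a ratio at the summit, a Poisson p-value and a q-value are deposited as −log10, and the deposited score is the −log10 q times 10, cut to a whole number, in 6182 of 6183 rows.

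ChIP reads and background were solved from fold enrichment and −log10 p. With 0.98 as the weight of 1 read, all 6183 peaks gave whole reads within 0.05, and of 1403 peaks with 2 solutions the higher background was taken. On 1000 simulated summits, 99.5% of reads and 99.5% of backgrounds (within 1 percent) were recovered. The simulated backgrounds were drawn from the solved ones and solved by the same choice. The simulation therefore cannot show whether that choice was right for the 1403 peaks. Intervals are exact Poisson intervals at 95%, for counting error only. The depth of the library is unknown.

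Genes, starts and promoter sequences were from RefSeq GRCh38.p14. All 10 genes matched by symbol, and 9 had promoter windows, which were present for 15843 of 20037 protein-coding genes. All 10 genes are named, as are the reference genes with a peak, with values for the 5 highest, and others were named where they neighbour a peak or as examples without one. Of the list of further network genes, 2 are not reported here. The genes and lists were chosen with earlier results of these data known. Scripts ran in Python 3.11.15 with scipy 1.17.1, pandas 2.3.3, numpy 2.4.6 and, for plots, matplotlib 3.10.9.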

Additional observations from a re-analysis of the deposited data

How the results depend on the processing

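The number of network genes with a peak was 6 and lay between 4 and 6 with the gene body alone, with 3, 10 or 50 kb, with the summit in place of the interval, with −log10 q or fold enrichment of at least 5, and with peaks counted only for the nearest protein-coding body. MLX, MXD1, MXD4 and MNT had a peak under each of these, while MAX and MGA lost theirs with the gene body, with 3 kb and with the nearest body, and MAX also with 10 kb. The number of peaks fell from 12 to 6 with the gene body alone, which follows from the shorter region, and lay between 8 and 13 under the others. The highest fold enrichment, 23.6, was the same under all of them. By −log10 q in place of fold enrichment, the MNT peaks moved from ranks 53 and 58 to 81 and 88. An E-box was found at 3 peaks within 100 bp of the summit, at 2 within 50 bp and at 2 in the whole interval, where 5, 7 and 3 peaks had sequence. Windows 2 kb from the summits were not searched, since no genome was used here. No paired analysis was possible because the series holds a single NeuroD1 library. With at most 48 reads at a summit of the 12 peaks, the order of peaks other than the MNT pair is limited by counting error.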

Other observations

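The 4 genes with a peak at their own start, MLX, MXD1, MXD4 and MNT, are MLX and the 3 antagonists that are known to pair with it besides MAX. The 5 other genes with a promoter window, MAX, MYCL, MXD3, MXI1 and MGA, had no peak there. No peak was found over a promoter window of the remaining MLX partners, MLXIP and MLXIPL, either, and the MLXIPL peak lay at the start of VPS37D. This grouping was noticed after the values were seen and was not tested.

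At the genes with paired peaks before the start, the summits lay 529 bp apart at MNT and 541 bp apart at MXD1. This was noticed after the values were seen, and the spacing of paired peaks over the whole list was not examined. The outer summits lay 614 bp and 635 bp before the start. At MNT the outer peak was as high as the inner one (23.1-fold and 23.6-fold), and at MXD1 it had 14 reads against 23, with overlapping counting intervals (7.65 to 23.5 and 14.6 to 34.5).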
